A study of Mus musculus with 28 samples.

Results

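Accessible chromatin in mouse embryonic fibroblasts (MEF) was compared with that of cells carrying wild-type Tet2 after 5 days of reprogramming. The comparison took 4 MEF libraries (day 0) and 4 Tet2-WT day 5 libraries, 8 of the 28 ATAC-seq libraries of the series. All cells had the strain background V6.5 129XBI/6 and came from embryos of day e12.5. The transduced cells were Tet2-/- MEF that carry the OKSM reprogramming factors and rtTA, the doxycycline-dependent activator of their expression. The Tet2-WT group received wild-type Tet2 in a pMXs retrovirus. After transfer to feeder cells treated with mitomycin C, it was kept in medium with 2i, LIF and doxycycline, and was sorted by flow cytometry for SSEA1-RFP. The MEF samples are labelled as untreated controls, with no sorting and no allele named on the samples themselves. What sorting, vector, medium, the OKSM factors and time each contribute cannot be told apart in this design. The other groups, 4 libraries each, were the empty pMXs vector and Tet2-E at day 5, and pMXs, Tet2-WT and Tet2-E at day 10. The labels do not say whether the replicates came from separate cultures, so the p-values rest on a spread between libraries that may be technical alone.

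ATAC-seq cuts DNA with a transposase that reaches mainly chromatin free of nucleosomes, so that promoters, enhancers and insulators appear as peaks. Reprogramming by Oct4, Klf4, Sox2 and c-Myc is known to close sites open in fibroblasts and to open sites of the pluripotent state. SSEA1 is a cell-surface sugar epitope that appears early on cells that take that path. TET2 oxidises 5-methylcytosine, a step towards removal of DNA methylation. In a bulk library a peak that is lost can mean fewer open cells or a less open site, and the difference cannot be told apart.

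Both groups held peak lists of similar length. The MEF lists had 72140, 41345, 56538 and 52159 peaks on chromosomes 1 to 19 and X, and the Tet2-WT day 5 lists had 48936, 47570, 55930 and 56121. The ranges overlapped, and the means of 55546 ± 12774 and 52139 ± 4523 (SD, n = 4 each) differed by -3406 (2-sided exact permutation p = 0.657). MEF 1 had the longest list, and without it the difference was 2125. Peaks covered 18.5, 10.6, 13.3 and 12.2 Mb in the MEF libraries and 11.5, 10.1, 11.6 and 11.5 Mb at day 5 (exact permutation p = 0.2, adjusted p = 0.3). The median peak width averaged 194.5 ± 11.3 bp in MEF and 167.5 ± 13.2 bp at day 5 (SD, n = 4 each, exact permutation p = 0.0857, adjusted p = 0.171). The X chromosome held 2.25% ± 0.0626 of the peaks in MEF and 2.27% ± 0.0426 at day 5 (SD, n = 4 each). The pileup of reads that the peak caller took as background was recovered from the deposited fold and p of each peak. The most frequent value over the peaks of a library is named its background pileup. It was 0.66, 0.394, 0.501 and 0.458 in MEF and 1.037, 0.911, 0.86 and 0.844 at day 5, with no overlap (exact permutation p = 0.029, the smallest 4 against 4 allows, adjusted p = 0.0857 over 6 values). The number of reads behind each library is not given in the sources used here, and the part of this background in the results was not tested.

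The peak sets of the groups resembled each other much less than the libraries within a group. The Jaccard index, the bases shared by both lists over the bases in either, was 0.459 on average between MEF libraries (0.421 to 0.482) and 0.481 between Tet2-WT day 5 libraries (0.476 to 0.492). Between a MEF and a Tet2-WT day 5 library it was 0.235 (0.211 to 0.255). The ranges did not overlap, and the within-group index exceeded the between-group index by 0.236 (exact permutation p = 0.029, adjusted p = 0.0857).

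Merging the peaks of the 8 libraries gave 133086 regions. A set of 49473 was called in 1 library alone, and the remaining 83613, called in at least 2, were tested. Of these, 9459 went from no MEF library to all 4 Tet2-WT day 5 libraries, 11.3% of those tested, and are named complete gains. The reverse, complete losses, numbered 8806, or 10.5%. When peaks had to cover at least 50% of a region, there were 6092 complete gains and 7716 complete losses. A further 12461 regions, 14.9% of those tested, were called in all 8 libraries. The choice of these sets fixes their direction, so their calls in the 8 libraries are a description. By Fisher's exact test per region, 0 regions passed an adjusted p of 0.05, since 4 against 4 cannot go below 0.029, and the smallest adjusted p was 0.131. At an unadjusted p under 0.05 there were 18265 regions, all of them the complete gains and losses.

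Losses made up 48.2% of the complete changes, a share that moved across 50% with the processing. It was 51.9% with peaks of at least 5 on the −log10 q scale, 50.3% with equal numbers of peaks per library, and 55.9% when peaks had to cover at least 50% of a region. Without MEF 2, the shortest list, it was 56.8%, without MEF 3 50.5% and without MEF 4 51.8%. Neither direction can therefore be called the more frequent one.

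**Figure D1:**
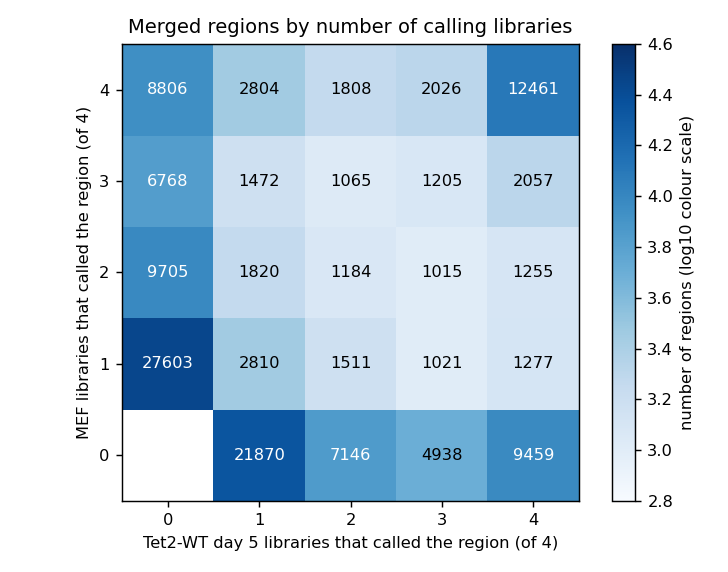
Number of merged regions by how many of the 4 MEF libraries (vertical axis) and of the 4 Tet2-WT day 5 libraries (horizontal axis) called them, with colour on a log10 scale; the cell at 0 and 0 is empty by construction. The corners hold the 8806 complete losses (top left), the 9459 complete gains (bottom right) and the 12461 regions in all 8 (top right).

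The open sites of one state were divided into kept, lost and intermediate. Every MEF library called 27905 regions, and of these 31.6% were absent from all 4 day 5 lists and 44.7% were in all 4. The others were called in 1, 2 or 3 day 5 libraries, with 2804, 1808 and 2026 regions. Single Tet2-WT libraries called 53.4%, 52.7%, 60.1% and 57.2% of them (mean 55.9% ± 3.49, SD, n = 4). Every Tet2-WT day 5 library called 26509 regions, and of these 35.7% were absent from all 4 MEF lists and 47.0% were in all 4. The intermediate ones, in 1, 2 or 3 MEF libraries, numbered 1277, 1255 and 2057. Single MEF libraries called 61.0%, 51.6%, 57.3% and 55.7% of them (mean 56.4% ± 3.89, SD, n = 4). Regions with intermediate calls were a minority in both directions.

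Stronger sites were more often kept. The fold, the authors' own value of a peak's height over its local background, ranked the regions of all 4 MEF libraries into quartiles. From the weakest to the strongest quartile, 37.7%, 35.9%, 31.5% and 21.1% were lost completely, and the share kept in all 4 day 5 libraries went from 34.6% to 55.4%. For the regions of all 4 Tet2-WT libraries the share absent from MEF was 42.6%, 40.4%, 34.9% and 24.9%, and the share in all 8 went from 30.5% to 67.7%. In the strongest quartile, then, 1474 regions were still lost completely and 1648 were still gained completely. The median fold was 7.24 for complete gains (highest 16.2) and 8.20 for complete losses (highest 21.1). Regions in all 8 had a median fold of 8.28 at day 5 and 9.24 in MEF. The fold is the caller's value per library, relative to that library's background, and the background differed between the groups as given above.

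Gained and lost regions were narrower than constant ones. Peaks covered a median of 250 bases per complete gain and 231 bases per complete loss, against 343 bases at day 5 and 396 bases in MEF for the regions in all 8. Of these constant regions, 1801, or 14.5%, were covered over fewer bases in every Tet2-WT day 5 library than in every MEF library, and 440, or 3.53%, over more. The median over these regions was 472, 355, 391 and 373 bases in the MEF libraries and 356, 320, 356 and 338 at day 5, with MEF 2 inside the range of day 5. The median ratio of covered bases was 0.883. The highest point of the peak moved by at least 100 bases between groups that did not overlap in 475 constant regions (3.81%). Median peak width also differed between the groups by 27 bp, and its part in the narrowing was not tested.

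Complete gains lay nearer to each other than to losses. The median distance from a gain to the nearest other gain was 52.3 kb, and 15.0% of gains had another within 10 kb. From a loss to the nearest other loss it was 62.3 kb, with 12.3% within 10 kb. The distance from a gain to the nearest loss was 79.8 kb, and from a gain to the nearest constant region 56.0 kb. Constant regions lay closest together, at 35.5 kb and 16.6%. The sets differ in number, which these distances do not allow for.

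The strongest gained and lost sites were open or closed in nearly every library outside the comparison. The complete gain with the highest median fold lay on chromosome 2 from 62850160 to 62850650 in the mm9 build. Its fold was 9.10, 16.99, 15.9 and 16.5 in the 4 Tet2-WT day 5 libraries, and it was called in 4 of 4 libraries of each of the other 5 reprogramming groups. The next lay on chromosome 16 from 72623081 to 72623594, with folds of 15.8, 12.05, 15.7 and 14.3. It was called in all of those libraries but 1 of Tet2-E day 10. The third, on chromosome 4 from 65991627 to 65992167, had folds of 14.8, 14.3, 16.7 and 14.8 and was called in every one. The 10 strongest gains had median folds of 14.3 to 16.2, and their calls in the 20 libraries outside the comparison had no other gap.

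The complete loss with the highest median fold lay on chromosome 6 from 122565815 to 122566128. Its fold was 22.4, 21.7, 20.5 and 18.9 in the MEF libraries, and it was called in 0 of the 20 other reprogramming libraries. The loss on chromosome 8 from 63343696 to 63344070 had folds of 22.8, 18.5, 24.5 and 18.9 and also was called in none. The loss on chromosome 6 from 96003486 to 96003805 had folds of 21.1, 19.9, 22.8 and 20.1, and was called in none. The 10 strongest losses had median folds of 18.8 to 21.1. Of these, 4 were called in 1 or 2 other day 5 libraries, on chromosomes 9, 12, 3 and 16, and none at day 10. The genes at these positions are not named here, because no annotation of the mm9 build was used.

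The libraries outside the comparison took no part in choosing the regions, and they called most gains and few losses. Of the 9459 complete gains, the pMXs day 5 libraries called 82.7%, 85.7%, 94.0% and 87.2%, and the Tet2-E day 5 libraries 88.2%, 93.0%, 88.4% and 84.4%. These shares overlapped, with means of 87.4% ± 4.77 and 88.5% ± 3.51 (SD, n = 4 each), and differed by 1.08 percentage points (2-sided exact permutation p = 0.743, adjusted p = 0.743). The difference was -0.484 without pMXs 1 and -0.425 without Tet2-E 2. Of the 8806 complete losses, pMXs day 5 libraries called 1.96%, 2.25%, 11.5% and 8.79%, and Tet2-E day 5 libraries 3.33%, 4.75%, 1.83% and 1.99%. The means of 6.12% ± 4.76 and 2.97% ± 1.36 differed by -3.15 percentage points (exact permutation p = 0.314, adjusted p = 0.629). pMXs 3 and 4 lay above the rest. Without pMXs 3 the difference was -1.36, without pMXs 1 -4.53, and with equal numbers of peaks per library -2.02. For the regions in all 8, the pMXs and Tet2-E day 5 libraries called 96.0% and 95.9%.

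**Figure D2:**
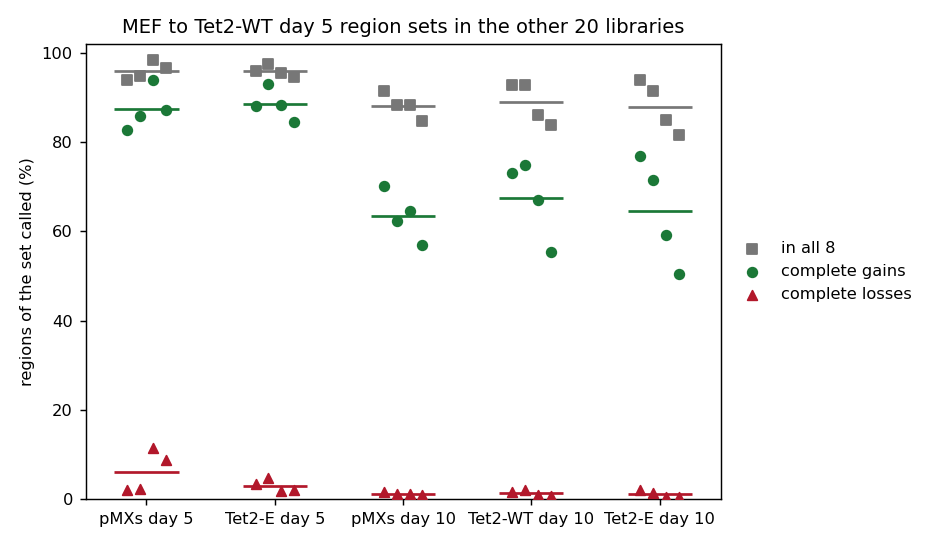
Share of the 9459 complete gains, 8806 complete losses and 12461 regions in all 8 (points, 1 per library; lines, group means; vertical axis in percent) called in each library outside the comparison, by vector and day. Gains averaged 87.4% and 88.5% at day 5 and 63.5% to 67.5% at day 10, and losses stayed at or below 11.5% in all libraries.

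Gained regions were called less often at day 10, whereas lost regions were still rarely called. The Tet2-WT day 10 libraries called 73.1%, 74.8%, 67.0% and 55.3% of the gains (mean 67.5% ± 8.82, SD, n = 4) and 1.25% ± 0.617 of the losses. The constant regions were called at 88.9% ± 4.66. The pMXs and Tet2-E groups at day 10 called 63.5% ± 5.55 and 64.5% ± 11.96 of the gains. The peak lists were shorter at day 10, averaging 39595 ± 8349 peaks in Tet2-WT, with a background pileup of 0.533 ± 0.0989 against 0.913 ± 0.0875 at day 5. The part of list length in the fall of gained regions was not tested.

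Of the gains, 3836 (40.6%) were called in 4 of 4 Tet2-WT day 10 libraries, 4768 in 1 to 3, and 855 (9.04%) in 0. Of the losses, 8456 (96.0%) were called in 0 of 4 and 2 in all 4. These 2 regions lay on chromosome 8 from 125060839 to 125061473 and on chromosome 10 from 72096858 to 72097334, and had median folds of 11.9 and 11.5 in MEF. They were chosen after their values were seen. The gains that were called in all 4 Tet2-WT day 10 libraries had a median fold of 8.36 at day 5, those called in none 6.20.

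Fold also went with agreement between vectors at day 5. All 8 pMXs and Tet2-E day 5 libraries called 23.5%, 43.5%, 70.5% and 93.8% of the gains, from the weakest to the strongest quartile of fold in Tet2-WT. The share of losses called in 0 of those 8 was 80.9%, 81.3%, 76.9% and 63.6%, lowest for the strongest MEF sites.

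Calling of the gains at day 10 went with their fold at day 5, while losses, ranked by their fold in MEF, were rarely called in any quartile. From the weakest to the strongest quartile of fold, the Tet2-WT day 10 libraries called 47.4%, 58.8%, 73.5% and 90.5% of the complete gains on average. They called 73.4%, 87.7%, 95.4% and 99.3% of the constant regions over the quartiles of that set. Quartiles were cut within each set, so they span different folds. The strongest ran from 8.56 to 16.2 for gains and from 9.97 to 35.9 for constant regions. Complete losses were called at 1.51%, 1.10%, 1.27% and 1.11%.

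**Figure D3:**
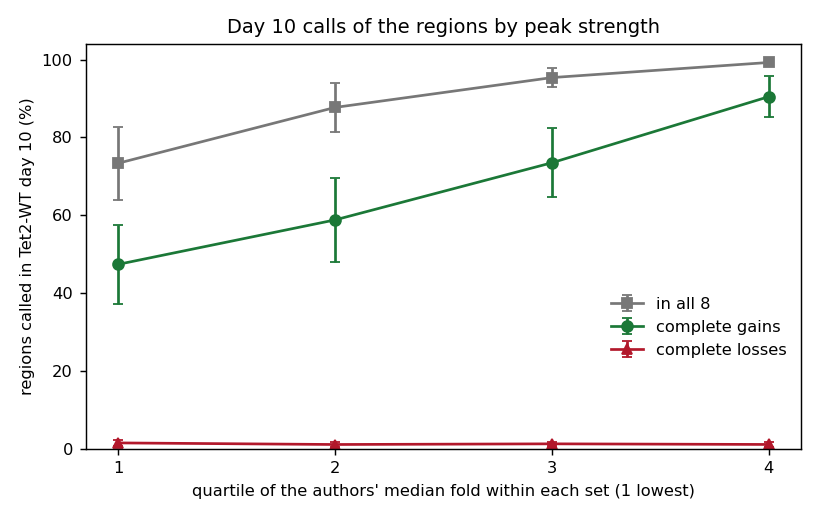
Mean share (± SD, n = 4 Tet2-WT day 10 libraries) of complete gains, complete losses and regions in all 8 called at day 10 (vertical axis, percent), by quartile of the authors' median fold within each set (horizontal axis). Gains rose from 47.4% to 90.5% and losses stayed between 1.10% and 1.51%.

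Calls of the gains and losses were also counted over all other vectors together. All 8 other day 5 libraries called 5469 of the gains (57.8%), and 6664 of the losses (75.7%) were called in 0 of those 8. Of the regions in all 8, all 8 other day 5 libraries called 54.6% in the weakest and 99.6% in the strongest quartile of fold. Over all 20 other reprogramming libraries the counts were 1994 gains (21.1%) and 6382 losses (72.5%). The same counts over all tested regions were not made, so these shares are a description. With the peaks of all 16 MEF and day 5 libraries merged into 153619 regions, the complete gains from MEF numbered 9451 in Tet2-WT, 7782 in pMXs and 7942 in Tet2-E, and the complete losses 8799, 8646 and 10133. These 3 comparisons share the MEF libraries. The peak lists also differed in length, with means of 52139 in Tet2-WT, 49173 in pMXs and 48180 in Tet2-E at day 5. The shortest lists of these groups had 47570, 42539 and 41414 peaks. The part of list length in the counts per vector was not tested. Regions called in 4 of 4 Tet2-WT day 5 libraries, in 0 of 4 MEF libraries and in 0 of the 8 pMXs and Tet2-E day 5 libraries numbered 15, against 4 for pMXs and 0 for Tet2-E in the same pattern. The folds of the 15 ran from 4.56 to 5.94, under the median of 7.24 of the gains. The reverse pattern, called in MEF and all 8 but in 0 of 4 Tet2-WT libraries, had 0 regions.

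Peaks were also counted in fixed windows of 1 Mb, which gave replicated values for a fit over all windows. Of 2126 windows with a mean of at least 5 peaks, 527 (24.8%) had fewer peaks at day 5 and 448 (21.1%) had more (limma on log2 of peaks scaled to the library's peak number, Benjamini-Hochberg adjusted p under 0.05). At an unadjusted p under 0.05 there were 1107. Fewer peaks thus made up 54.1% of the calls. Without scaling to the library's peak number the counts were 279 and 93, so that 75.0% of the calls were lower. In windows that fell, the median number of peaks went from 23.0 to 13.75 and the median log2 change was -0.59. In windows that rose it went from 25.75 to 33.0, with a median of 0.44. Peak numbers did not overlap between the groups in 208 of the lower and 88 of the higher windows. The same held for 6 of the 1151 windows that passed in neither direction.

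Windows and complete changes carried the same peaks, so their overlap is a description. The lower windows held 2898 complete losses, 33.8% of the losses in tested windows, and 1338 gains, 14.5% of the gains. The higher windows held 3016 gains (32.7%) and 1238 losses (14.5%). Windows that passed in neither direction, 54.1% of those tested, held 4430 losses (51.7%) and 4880 gains (52.8%), close to their share of the windows. Nearly every window held a complete gain: 87.3% of the lower, 95.4% of the uncalled and 99.1% of the higher windows. Across windows, the scaled peak numbers correlated at 0.933 to 0.954 between MEF libraries, 0.942 to 0.951 between Tet2-WT libraries and 0.806 to 0.845 between the groups. These are correlations over 2126 windows, which are not independent replicates and share the library's depth.

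The window with the largest fall lay on chromosome 1 from 70 to 71 Mb. It held 17, 5, 9 and 10 peaks in the MEF libraries and 0, 0, 1 and 1 at day 5, a log2 change of -3.45 (SE 0.42, limma adjusted p = 4.34e-09). With so few peaks the size depends on the constant added before the log, and it was -2.17 with 2 added in place of 0.5. Its peaks stayed few in other groups, at 1.25 ± 0.957 in pMXs day 5 and 1.00 ± 0.816 in Tet2-WT day 10 (SD, n = 4 each).

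The window on chromosome 9 from 33 to 34 Mb went from 19, 11, 14 and 18 peaks to 3, 2, 1 and 2 (log2 -2.64, SE 0.27, limma adjusted p = 5.18e-11) and held 7 complete losses. On chromosome 8 from 118 to 119 Mb the numbers were 37, 23, 33 and 23 in MEF and 5, 3, 7 and 6 at day 5 (log2 -2.32, SE 0.18, limma adjusted p = 1.48e-15). That window held 12 complete losses and 1 complete gain. The groups did not overlap in any of these 3 windows.

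The other 7 windows with the largest falls, on chromosomes 13, 2, 15, 2, 8, 4 and 10, had log2 changes of -2.90 to -1.81. With 2 added, the one on chromosome 13 from 27 to 28 Mb went from -2.90 to -1.93, and the one on chromosome 2 from 7 to 8 Mb from -2.45 to -1.69. The latter was -1.78 without Tet2-WT day 5 replicate 2, which held no peak there, -3.12 with stricter peaks and -3.17 with equal numbers of peaks. The one on chromosome 2 from 95 to 96 Mb went from -2.14 to -2.77 with stricter peaks. The one on chromosome 8 from 45 to 46 Mb went from 39, 17, 22 and 20 peaks to 4, 5, 4 and 9, and held 11 complete losses. The one on chromosome 10 from 16 to 17 Mb went from 28, 14, 19 and 17 peaks to 7, 3, 6 and 4, and held 9.

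The largest rise was on chromosome 4 from 60 to 61 Mb. It held 3, 1, 2 and 0 peaks in MEF and 7, 5, 8 and 15 at day 5 (log2 2.49, SE 0.40, limma adjusted p = 9.94e-07), yet no complete gain and no region called in all 8. With 2 added before the log in place of 0.5, this change was 1.69. The pMXs and Tet2-E day 5 libraries held 6.00 ± 3.37 and 5.00 ± 1.63 peaks there. The window on chromosome 5 from 19 to 20 Mb went from 8, 3, 6 and 5 to 19, 16, 16 and 18 peaks (log2 1.70, SE 0.19, limma adjusted p = 3.94e-10) with 7 complete gains. On chromosome 9 from 4 to 5 Mb the numbers were 6, 3, 3 and 4, then 12, 14, 12 and 12 (log2 1.64, SE 0.23, limma adjusted p = 5.81e-08). The groups did not overlap in these 3 windows. The other 7 windows with the largest rises had log2 changes of 1.24 to 1.53, and the one on chromosome 9 from 80 to 81 Mb met at 7 peaks in both groups.

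**Figure D4:**
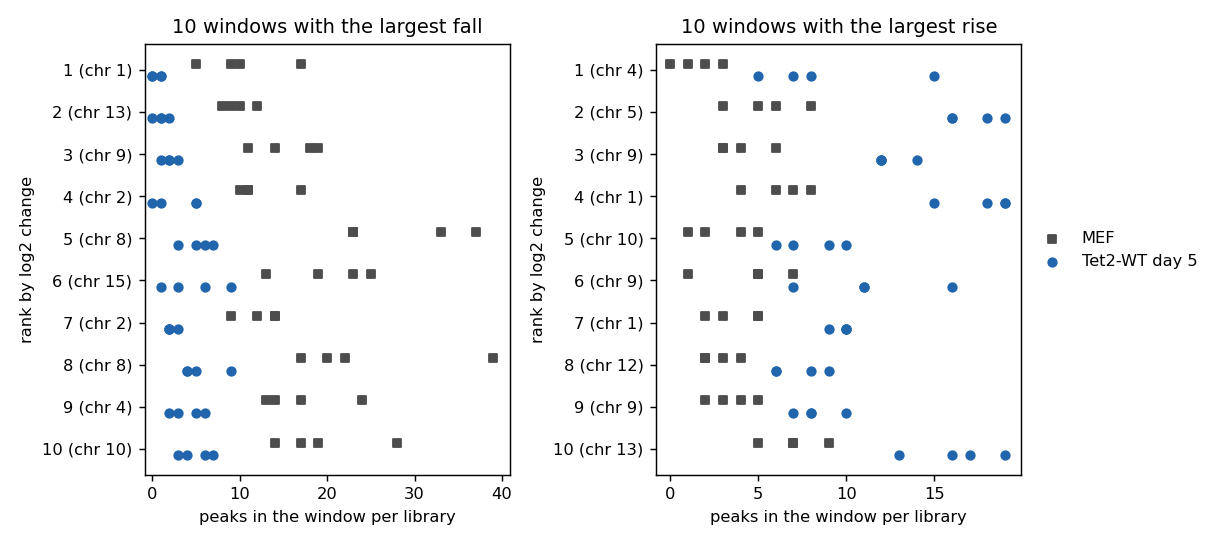
Peaks per library (horizontal axis) in the 10 windows of 1 Mb with the largest fall (left) and the 10 with the largest rise (right), ordered by log2 change, with MEF as squares and Tet2-WT day 5 as circles. The windows were chosen for the size of their change, which favours groups that do not overlap. The groups do not overlap in 19 of the 20 windows, the exception being the sixth rise, on chromosome 9. Among all tested windows they do not overlap in 208 of 527 lower, 88 of 448 higher and 6 of 1151 uncalled windows.

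Some windows that changed lay beside each other. The 527 lower windows formed 375 runs, of which 30 held at least 3 windows, and the 448 higher windows formed 341 runs, of which 19 did. Most runs, 271 of the lower and 261 of the higher, held 1 window. With 24.8% and 21.1% of the windows called, some neighbours fall together by chance. That number was not worked out, so the runs are a description. The longest lower run lay on chromosome 1 from 77000001 to 84000000, with 7 windows, and its peaks went from 151.5 to 82.5 on average, with 36 complete losses and 9 complete gains. The longest higher run, of 5 windows, lay on chromosome 3 from 86000001 to 91000000. Its peaks went from 217.25 to 261.0, with 39 complete gains and 14 complete losses.

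Chromosome 8 had the largest share of lower windows, 53 of 108 (49.1%), with 5 higher. Its median log2 change was -0.24, and 57.1% of its complete changes were losses. Every alternative to the window fit that was run gave more lower than higher windows there, with a lowest count of 28 lower and 0 higher without scaling. Its share of all peaks was 6.63% ± 0.140 in MEF and 5.85% ± 0.235 in Tet2-WT day 5 (SD, n = 4 each, exact permutation p = 0.029, adjusted p = 0.044 over 20 chromosomes). The ranges of 6.44% to 6.76% and 5.57% to 6.14% did not overlap. In pMXs and Tet2-E day 5 it was 5.91% ± 0.138 and 5.89% ± 0.329, and in Tet2-WT day 10 6.34% ± 0.247.

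Losses numbered 695 and gains 523 on chromosome 8. Chromosome 17 stood at the other end, with 290 losses and 408 gains, so that losses were 41.5% of its complete changes, and had the largest share of higher windows, 28 of 78 (35.9%). Its share of all peaks was 3.96% ± 0.0682 in MEF and 4.36% ± 0.0241 in Tet2-WT day 5, with ranges that did not overlap. The shares of chromosomes 7 and 11 went from 5.97% ± 0.122 to 6.39% ± 0.142 and from 6.35% ± 0.0690 to 6.79% ± 0.0249 (SD, n = 4 each), also with no overlap. In Tet2-WT day 10 they were 6.72% ± 0.195 and 7.17% ± 0.237. Chromosome shares passed an adjusted p of 0.05 for 13 of 20 chromosomes. All 13 had an exact permutation p of 0.029, the smallest that 4 against 4 allows. With stricter peaks, with equal numbers of peaks, or in 7 of the 8 settings that left out 1 library, 0 passed. Each adjusted p depends on how many of the 20 chromosomes reach the smallest p. The counts of 13 and 0 therefore do not measure the size of any shift. For chromosome 8 the difference in share was -0.778 as reported, -0.810 with stricter peaks and -0.837 with equal numbers of peaks.

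**Figure D5:**
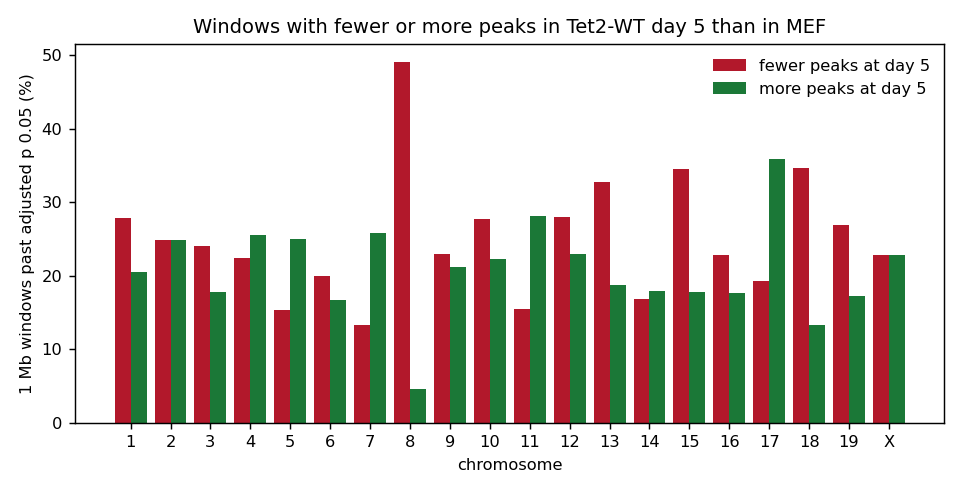
Share of tested 1 Mb windows with fewer (red) or more (green) peaks in Tet2-WT day 5 than in MEF at a limma adjusted p under 0.05 (vertical axis, percent), by chromosome. Chromosome 8 has 49.1% lower and 4.63% higher windows, and chromosome 17 has 35.9% higher.

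No window passed between Tet2-WT and another vector at day 5. In the window fit of Tet2-WT against pMXs, 0 of 2064 windows passed (limma, 83 at an unadjusted p under 0.05), and against Tet2-E 0 of 2048 (limma, 100 at an unadjusted p under 0.05). A p that misses the threshold does not show that the vectors act alike.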

How the data were processed

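ATAC-seq peak lists of 28 libraries were used. Per the submitters' processing notes the tools were Bowtie2, SAMtools, bedtools and MACS2 with the mm9 build, with no versions given. Each deposited list gives, by the authors, the position of a peak, a score, a fold over the background (a ratio), and −log10 p and −log10 q values, called per library. The lowest −log10 q was 2.0, a q of 0.01. Peaks outside chromosomes 1 to 19 and X, 105 to 206 per list among the 8 libraries, were left out.

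Overlapping peaks of the 8 lists (1 bp) were merged, and a library called a region if any of its peaks overlapped it. The background pileup was solved from each peak's fold and p, with whole pileups for 100% of peaks within 0.0002 of the −log10 p. Regions were tested with Fisher's exact test (Benjamini-Hochberg), and library values with exact permutation tests, 2-sided except for the Jaccard index. For that index the test looked only for a within-group index above the between-group index. Windows were tested with limma 3.58.1 in R 4.3.3 (trend, log2 of peaks + 0.5, scaled to the library's peak number). Named regions are the 10 complete gains and the 10 complete losses with the highest median fold. Named windows are the 10 largest falls and the 10 largest rises past the threshold. Scripts were tested on simulated data. The comparison, its lists and its tests were chosen with earlier results of these data known. No mm9 genome or annotation was used here, so genes and motifs were not analysed. Alternatives covered the peak threshold, list length, overlap, windows, scaling and each library left out.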

Additional observations from a re-analysis of the deposited data

Results flagged for a closer look

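In groups of 4 libraries, 6 of 77 groups held a library set apart from the others by a gap that is large for the group's range. By chance the limit used gives about 1 in 20 for continuous values. Peak numbers in windows are small whole numbers with ties, so that rate does not hold for them. Tet2-WT day 5 replicate 2 had the lowest covered length, 10.1 Mb, against 11.5 to 11.6 Mb in the other libraries of its group. In pMXs day 5, the lowest median peak width was 158 bp, against 165 to 166 bp. In the window of chromosome 2 from 7 to 8 Mb, MEF 1 held 17 peaks, against 10 or 11. In that of chromosome 2 from 95 to 96 Mb, Tet2-WT day 5 replicate 1 held 3 peaks against 2 in each of the others. On chromosome 9 from 4 to 5 Mb, Tet2-WT day 5 replicate 2 held 14 peaks against 12 in each of the others. On chromosome 1 from 97 to 98 Mb, replicate 2 of the same group held 9 peaks against 10. The last 3 gaps are of 1 or 2 peaks.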

How the results depend on the processing

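The share of losses among complete changes, 48.2%, was 51.9% with stricter peaks, 50.3% with equal lists and 55.9% with 50% cover, and leaving out 1 library gave 45.5% to 56.8%. Complete gains fell to 6092 with 50% cover. Windows lower at day 5 numbered 330 of 1203 tested at 2 Mb and 279 of 2126 unscaled. Higher ones numbered 727 of 3460 in windows of 0.5 Mb, 265 of 1203 at 2 Mb and 93 of 2126 unscaled. Windows called in either direction were 45.9% of those tested at 1 Mb, 42.4% at 0.5 Mb, 49.5% at 2 Mb and 17.5% unscaled. With equal lists the differences in covered length (-1.60 Mb), median width (-34.0 bp), share on X (0.145) and Jaccard index (0.255) passed (exact permutation, adjusted p = 0.0343). The background pileup (0.410) was not recomputed on equal lists. Its exact permutation adjusted p went from 0.0857 to 0.0343 only through the other values adjusted with it. Leaving out 1 library gave -8140 to 2125 for the difference in peak number and -0.0012 to 0.0498 for the share on X. For chromosome shares it gave 0 to 12 passing of 20, and 0 passed with stricter peaks or equal lists. For the share on chromosome 8 it gave -0.874 to -0.683, with -0.810 for stricter peaks and -0.837 for equal lists, which did not pass. Passing there depends on how many chromosomes reach the smallest p, as given above. For Tet2-E minus pMXs, leaving out 1 library gave -0.484 to 3.27 for gains and -4.53 to -1.36 for losses. The other values kept their direction and side of the threshold, as did 262 of 262 named-window alternatives that were fitted and 59 of 60 named-region ones. A named window under the minimum mean of peaks in a setting was not fitted there. The largest fall (chromosome 1, 70 to 71 Mb) and the largest rise (chromosome 4, 60 to 61 Mb) had no fit with stricter peaks or equal lists. Both also lacked a fit in several settings that left out 1 library. Chromosome share and vector settings were chosen after seeing the data.

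Replicate numbers are shared by the groups. Same-numbered libraries had deviations correlating at -0.028, 0.050, 0.020 and -0.035, and differently numbered ones at -0.082 to 0.078. Such values cannot show whether same-numbered libraries came from a shared culture or batch. With a replicate block 533 windows were lower and 455 higher. Gene loci and peak sequence were not run for want of an mm9 reference. Depth is unknown, which limits how far an uncalled region can be read as closed.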
